A study of Mus musculus with 2 samples.

Results

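The 10 core circadian clock genes Arntl, Clock, Per1, Per2, Per3, Cry1, Cry2, Nr1d1, Nr1d2 and Ciart were taken by symbol from the 32285 genes counted in single nuclei of the mouse subventricular zone (SVZ), the germinal zone beside the lateral ventricle. All 10 had transcripts in both libraries. One library came from mice with MIP, a modeled intestinal perforation, and 1 from control mice. Mice were divided into these groups on postnatal day 5, and the SVZ was dissected 48 h later, on postnatal day 7, snap frozen and stored frozen before nuclei were isolated. Neither strain, sex, the number of animals in a library nor the time of day at dissection is given in the sources used here. The question is how clock gene RNA in the SVZ differed between mice with an intestinal injury and controls. With 1 library per group no test was made. Every difference describes these 2 libraries, and each interval is a 95% interval that covers counting error only.

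The mammalian clock is a feedback loop of transcription that runs in most cells of the body. The proteins of Arntl (BMAL1) and Clock pair and bind E-box sequences, and so switch on the Per and Cry genes, the Nr1d genes and Ciart. PER and CRY proteins gather, enter the nucleus and repress BMAL1 and CLOCK, while the NR1D proteins (REV-ERBs) repress Arntl. Over a day Arntl RNA thus runs in roughly opposite phase to that of many of its targets, though not of all. Clock RNA itself varies little over the day in most tissues. Per1 is also switched on directly by glucocorticoid hormone and by cyclic AMP signalling. Astrocytes of the brain keep such a clock, and neural stem cells have been studied for it too.

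The upstream sequences were read for the elements of this loop. The arms of the clock compared below were set by gene name, not from these letters. RefSeq windows of 250 bases before a transcription start, on GRCm38.p6, were found for 9 of the 10 genes, all but Per2. These genes had 13 windows. A gene with several had more chances of a match, while the shares of all are per window. The E-box CACGTG, searched on both strands, was in windows of Per1, Cry1 and Ciart, and in 6.02% of all 32851 windows. The variant CACGTT, on both strands, was in windows of Cry1, Cry2 and Nr1d1, and in 3.85% of all. The D-box TTATGNAA, bound by the output factors Dbp, Tef and Hlf, was in windows of Per1 and Per3, and in 3.07% of all. The letters TAGGTCA, the core of the element that NR1D proteins bind, the cyclic AMP element TGACGTCA and the glucocorticoid response element were in none of the 9 genes' windows, and in 2.23%, 1.55% and 0.387% of all. No match overlapped another. Stretches of 30 bases around the matches are shown 5′ to 3′ on the gene's strand, with the matched letters in capitals. AACGTG is CACGTT read from the other strand. The window of Per3 held D-boxes only. The Per1 matches lie inside the GENCODE M21 locus of Per1 given below, downstream of its start. Their window, set by a RefSeq start, overlaps an annotated exon.
Ciart, E-boxes nearest the start (chr3:95882262-95882291, minus strand): ggaggCACGTGcagaaccgCACGTGtctgg
Ciart, distal E-box (chr3:95882327-95882356, minus strand): tgcatctagagtCACGTGttgccggtaagc
Cry1, CACGTT variant and E-box (chr10:85185107-85185136, minus strand): agaAACGTGaggtgccggtggtCACGTGgg
Per1, E-box (chr11:69098771-69098800, plus strand): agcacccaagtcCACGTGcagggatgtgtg
Per1, D-box (chr11:69098914-69098943, plus strand): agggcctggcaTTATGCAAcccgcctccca
Nr1d1, CACGTT variant (chr11:98775388-98775417, minus strand): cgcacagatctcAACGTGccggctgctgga
Cry2, CACGTT variant (chr2:92434218-92434247, minus strand): acacatggtgggAACGTGagggggcggagc
Per3, distal D-box (chr4:151044852-151044881, minus strand): cgacccgcgcgTTATGTAAggtactcgggg
Per3, proximal D-box (chr4:151044805-151044834, minus strand): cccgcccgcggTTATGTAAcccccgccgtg
Such a match describes the letters only and does not show that a factor was bound in these nuclei.

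After filtering, 10940 MIP and 14579 control nuclei remained, with median depths of 6030 unique molecular identifiers (UMIs, counted transcripts) in the MIP and 5647 UMIs in the control library. Clusters were formed without the clock genes and named from markers, and "-like" marks resemblance to a cell type. The 9 classes compared, each with 100 or more nuclei per library, held between 126 and 2904 MIP nuclei and between 210 and 3050 control nuclei. Neuroblast-like nuclei, the migrating newborn neurons that mark the SVZ, made up 6.47% of MIP and 8.51% of control nuclei, and spiny projection neuron-like nuclei, of the neighbouring striatum, 26.5% of MIP and 20.9% of control nuclei. In all 9 classes the median depth was lower in the MIP than in the control library, and the ratios were also computed from nuclei thinned to 2000 UMIs each. Unnamed clusters of low depth held 710 MIP and 3616 control nuclei. The libraries also differed in sex: Xist was at 1.41 CPM (UMIs per 1000000) in the MIP and 1749 CPM in the control library, and 4 Y-linked genes together at 473 CPM in the MIP and 0.314 CPM in the control library. MIP and male sex, and control and female sex, cannot be told apart here. The libraries shared 115 barcode sequences.

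RNA of Per1, Per2, Cry1, Cry2 and Ciart was at least 1.5 times higher in the MIP library in most of the classes where each was measured. Nr1d1 was so in 3 of 7 classes, Nr1d2 in 4 of 9 and Per3 in 1 of 9, while Arntl was so in 0 of 9 and Clock in 1 of 9. Of 90 pairs of a gene and a class, 82 had at least 20 UMIs over both libraries. In 44 of these the MIP level was at least 1.5 times the control level, and in 1 it was at least 1.5 times lower. In 54 the whole interval lay above equality, which in deeply counted classes also happens at small ratios. No share of all genes was computed for these pooled counts, which come from the same 2 libraries. In astroglia-like nuclei 7 of the 10 clock genes were past a ratio of 1.5 upward and 0 downward, where 4.81% of all genes measured were as much higher and 15.3% as much lower. In oligodendrocyte precursor-like nuclei 7 of 10 were higher, against 4.45% of all genes, in interneuron-like nuclei 6 of 10, against 3.63%, and in excitatory neuron-like nuclei 6 of 10, against 3.84%. The interneuron-like count was 3 with nuclei thinned to 2000 UMIs and 1 at a ratio of 2. Shares of all genes were computed at a ratio of 1.5 and without thinning only. Cycling progenitor-like nuclei had 5 of 10 higher, against 5.82%, microglia-like nuclei 4 of 7, against 12.1%, and spiny projection neuron-like nuclei 4 of 10, against 3.43%. After thinning the cycling progenitor-like count was 2. In neuroblast-like nuclei 3 of 9 were higher, against 6.99%, and after thinning 5 were higher and 1 lower. The differentiating oligodendrocyte-like class, with 2 of 6 higher, against 8.62%, and 1 lower, against 17.1%, held few clock transcripts. Over all nuclei 6 of 10 genes were higher, against 2.87% of all genes, and 0 lower, against 20.7%. The median log2 ratio of MIP to control over the 10 genes was 0.99 in astroglia-like nuclei, where the median of all genes was -0.12. In spiny projection neuron-like nuclei these medians were 0.43 and -0.15. All genes together thus lay slightly below equality, and TMM scaling, which centres the bulk of genes on equality, would raise the log2 ratios of 7 classes, by up to 0.16 in excitatory neuron-like nuclei. It would lower those of cycling progenitor-like and neuroblast-like nuclei by less than 0.01.

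**Figure D1:**
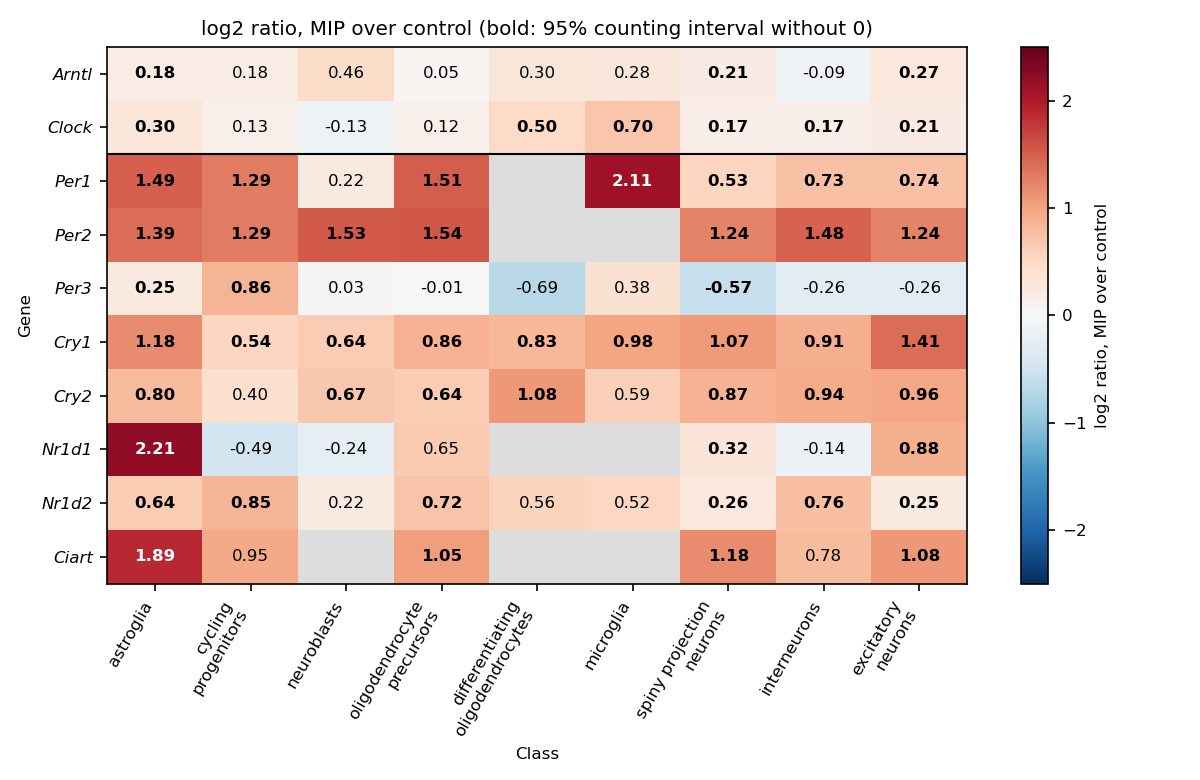
The log2 ratio of MIP to control (UMIs per 1000000 of the class total) is printed for each clock gene (rows; Arntl and Clock above the line) in each of 9 classes (columns), in bold where the 95% counting interval leaves out 0. Grey squares had under 20 UMIs over both libraries. Per2 lies between 1.24 and 1.54 in the 7 classes measured, and Nr1d1 stands at 2.21 in astroglia.

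Arntl encodes BMAL1, the one partner the loop cannot do without (chromosome 7, 113207465 to 113314126, plus strand, GENCODE M21 on mm10). In astroglia-like nuclei it had 637 UMIs in the MIP and 899 in the control library, or 147 CPM in the MIP and 130.4 CPM in the control library, a log2 ratio of 0.18 (0.03 to 0.33). In spiny projection neuron-like nuclei it was at 56.8 CPM in the MIP and 49.1 CPM in the control library, a log2 ratio of 0.21 (0.11 to 0.31), and in excitatory neuron-like nuclei at 78.3 CPM in the MIP and 65.1 CPM in the control library, a log2 ratio of 0.27 (0.15 to 0.38). These 3 small excesses were the only ones whose interval left out 0. After thinning, the log2 ratio was 0.015 in astroglia-like and 0.60 in excitatory neuron-like nuclei. In interneuron-like nuclei the log2 ratio was -0.09 (-0.34 to 0.15), or 0.02 after TMM scaling, and in oligodendrocyte precursor-like nuclei 0.05 (-0.30 to 0.40). Without thinning, Arntl reached a ratio of 1.5 in no class, in either direction. Clock, the DNA-binding partner of BMAL1 and a histone acetyltransferase (chromosome 5, 76209868 to 76304792, minus strand), had 942 UMIs in the MIP and 1223 in the control library in astroglia-like nuclei, or 218 CPM in the MIP and 177 CPM in the control library, a log2 ratio of 0.30 (0.17 to 0.42). The one class past a ratio of 1.5 was microglia-like, with 231 UMIs in the MIP and 148 in the control library, or 239 CPM in the MIP and 148 CPM in the control library, a log2 ratio of 0.70 (0.39 to 1.004). Its log2 ratio in microglia-like nuclei exceeded that in the other 8 classes summed by 0.52 (0.22 to 0.82). In neuroblast-like nuclei Clock was at 99.5 CPM in the MIP and 109 CPM in the control library, a log2 ratio of -0.13 (-0.37 to 0.11), or 0.16 with classes from marker scores.

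Per2, a core repressor whose protein binds the cryptochromes (chromosome 1, 91415982 to 91459324, minus strand), was the member most alike across classes. In the 7 classes with enough UMIs every interval lay above 0, and each ratio was past 1.5. Astroglia-like nuclei had 296 UMIs in the MIP and 180 in the control library, or 68.5 CPM in the MIP and 26.1 CPM in the control library, a log2 ratio of 1.39 (1.12 to 1.67). In oligodendrocyte precursor-like nuclei the level was 43.2 CPM in the MIP and 14.8 CPM in the control library, a log2 ratio of 1.54 (1.07 to 2.03), and in spiny projection neuron-like nuclei 22.3 CPM in the MIP and 9.45 CPM in the control library, a log2 ratio of 1.24 (1.05 to 1.44). In neuroblast-like nuclei, where Cry1 and Cry2 were the only other members past 1.5, Per2 had 34 UMIs in the MIP and 31 in the control library, a log2 ratio of 1.53 (0.78 to 2.28). In none of these 7 classes did its log2 ratio differ from that of the other classes summed beyond counting error.

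Per1, the period gene that hormones and signalling switch on fastest (chromosome 11, 69095217 to 69109960, plus strand), differed more between classes. It was 2.82-fold higher in MIP astroglia-like nuclei, with 362 UMIs in the MIP and 205 in the control library, or 83.8 CPM in the MIP and 29.7 CPM in the control library, a log2 ratio of 1.49 (1.24 to 1.75). Microglia-like nuclei had 50 UMIs in the MIP and 12 in the control library, or 51.8 CPM in the MIP and 12 CPM in the control library, a log2 ratio of 2.11 (1.18 to 3.16), and oligodendrocyte precursor-like nuclei 76 UMIs in the MIP and 34 in the control library, a log2 ratio of 1.51 (0.90 to 2.13). The neurons lay lower, at 0.53 (0.35 to 0.71) in spiny projection neuron-like and 0.74 (0.45 to 1.03) in excitatory neuron-like nuclei. Against the other classes summed, the log2 ratio of Per1 was higher by 0.79 (0.51 to 1.07) in astroglia-like, by 0.69 (0.09 to 1.28) in oligodendrocyte precursor-like and by 1.26 (0.36 to 2.16) in microglia-like nuclei. The difference from the other classes was -0.55 (-0.78 to -0.31) in spiny projection neuron-like nuclei. In neuroblast-like nuclei, with 16 UMIs in the MIP and 36 in the control library, the log2 ratio of 0.22 (-0.72 to 1.11) was not distinguishable from 0 at this depth. The interneuron-like value of 0.73 (0.16 to 1.32) was -0.078 once nuclei were thinned to 2000 UMIs.

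Per3, which the loop can run without (chromosome 4, 151003652 to 151044665, minus strand), did not follow the other period genes. Its window held D-boxes and no E-box, that of Per1 held both, and Per2 had no window. A link between these letters and the ratios was not tested. Spiny projection neuron-like nuclei had 300 UMIs in the MIP and 647 in the control library, or 11.5 CPM in the MIP and 17.1 CPM in the control library, so that Per3 was lower there, at a log2 ratio of -0.57 (-0.77 to -0.37), or -0.57 after thinning, just short of a ratio of 1.5. That was the one member and class with a whole interval below 0. In 4 of the 5 spiny projection neuron-like clusters its interval also lay below 0. Cluster 2, led by Ebf1 and Drd1, was at -0.76 (-1.14 to -0.40), and cluster 5, led by Drd2, at -0.72 (-1.32 to -0.14), while cluster 8, also led by Drd2, was at -0.19 (-0.62 to 0.22). In astroglia-like nuclei Per3 had 529 UMIs in the MIP and 708 in the control library, a log2 ratio of 0.25 (0.09 to 0.42) that became -0.061 after thinning. Cycling progenitor-like nuclei had 43 UMIs in the MIP and 61 in the control library, a log2 ratio of 0.86 (0.26 to 1.44), or 0.28 after thinning. The one value at least 1.5 times lower was in differentiating oligodendrocyte-like nuclei, with 8 UMIs in the MIP and 28 in the control library, a log2 ratio of -0.69 (-2.03 to 0.48) whose interval included 0. In oligodendrocyte precursor-like nuclei it was -0.01 (-0.46 to 0.43), and 0.08 after TMM scaling. The whole Per3 locus lies inside that of Camta1 on the same strand in the annotation, and how reads in the overlap were assigned is not given in the labels or file headers. Camta1 was at a log2 ratio of 0.07 over all nuclei.

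Cry1 and Cry2 encode the cryptochromes, the strongest repressors of BMAL1 and CLOCK, and the MIP level of both exceeded the control level in all 9 classes. Cry1 (chromosome 10, 85131700 to 85185064, minus strand) had an interval above 0 in all 9 classes and a ratio past 1.5 in 8. It had 1151 UMIs in the MIP and 386 in the control library in excitatory neuron-like nuclei, or 60.5 CPM in the MIP and 22.8 CPM in the control library, a log2 ratio of 1.41 (1.24 to 1.58), which exceeded that of the other classes by 0.37 (0.18 to 0.56). Spiny projection neuron-like nuclei were at 64 CPM in the MIP and 30.5 CPM in the control library, a log2 ratio of 1.07 (0.96 to 1.18), and astroglia-like nuclei at 63.6 CPM in the MIP and 28.1 CPM in the control library, a log2 ratio of 1.18 (0.91 to 1.45). Cycling progenitor-like nuclei had the lowest ratio, 0.54 (0.02 to 1.04). Cry2 (chromosome 2, 92403646 to 92434043, minus strand) was past 1.5 in 8 classes, and its interval lay above 0 in 7. Its level was 159.7 CPM in the MIP and 91.8 CPM in the control library in astroglia-like nuclei, a log2 ratio of 0.80 (0.64 to 0.96), and 81.7 CPM in the MIP and 44.8 CPM in the control library in spiny projection neuron-like nuclei, a log2 ratio of 0.87 (0.78 to 0.96). The gene D930015M05Rik overlaps Cry2 on the other strand and was at 0.67 over all nuclei.

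Ciart encodes CHRONO, a further repressor of BMAL1 and CLOCK (chromosome 3, 95878503 to 95882251, minus strand), and its window held the E-box 3 times. It had 93 UMIs in the MIP and 40 in the control library in astroglia-like nuclei, or 21.5 CPM in the MIP and 5.8 CPM in the control library, a log2 ratio of 1.89 (1.34 to 2.46). Spiny projection neuron-like nuclei had 218 UMIs in the MIP and 140 in the control library, a log2 ratio of 1.18 (0.87 to 1.495), and excitatory neuron-like nuclei 102 UMIs in the MIP and 43 in the control library, a log2 ratio of 1.08 (0.55 to 1.62). In all 6 classes with enough UMIs the MIP level was at least 1.5 times the control level, and in 4 the interval left out 0. The antisense gene C920021L13Rik covers the whole locus and was at -0.22 over all nuclei.

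Nr1d1, the REV-ERB repressor of Arntl and among the most strongly cycling genes of most tissues (chromosome 11, 98767932 to 98775333, minus strand), stood out in astroglia-like nuclei. They had 191 UMIs in the MIP and 66 in the control library, or 44.2 CPM in the MIP and 9.57 CPM in the control library, 4.62-fold higher, a log2 ratio of 2.21 (1.80 to 2.63). Both large astroglia-like clusters showed it, at 2.05 (1.56 to 2.57) in cluster 4, with the markers Slc1a3 and Aldh1l1, and 2.09 (1.26 to 2.98) in cluster 12, led by Veph1. In spiny projection neuron-like nuclei the level was 7.85 CPM in the MIP and 6.27 CPM in the control library, a log2 ratio of 0.32 (0.05 to 0.60), and in excitatory neuron-like nuclei 5.89 CPM in the MIP and 3.2 CPM in the control library, a log2 ratio of 0.88 (0.40 to 1.38). The astroglia-like ratio exceeded that of the other classes summed by 1.85 (1.40 to 2.30). In cycling progenitor-like, neuroblast-like and interneuron-like nuclei, with 5 to 12 MIP and 16 to 31 control UMIs, no difference was detectable at this depth. The low-depth nuclei held Nr1d1 at 27 CPM in the MIP and 17.6 CPM in the control library, above all named classes in the control library and all but the astroglia-like class in the MIP library. The part of free RNA in these class values was not tested. Thra overlaps the end of Nr1d1 on the other strand and was at -0.10 over all nuclei. Nr1d2, its partner with overlapping roles (chromosome 14, 18204054 to 18239127, minus strand), differed less in astroglia-like nuclei, at 84.7 CPM in the MIP and 54.4 CPM in the control library, a log2 ratio of 0.64 (0.43 to 0.85). It was past 1.5 in 4 classes, with 0.76 (0.38 to 1.15) in interneuron-like, 0.72 (0.35 to 1.09) in oligodendrocyte precursor-like and 0.85 (0.37 to 1.33) in cycling progenitor-like nuclei. The cycling progenitor-like value was 0.32 without doublet removal. Its log2 ratio in spiny projection neuron-like nuclei, where it was counted most deeply, was 0.26 (0.15 to 0.37).

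**Figure D2:**
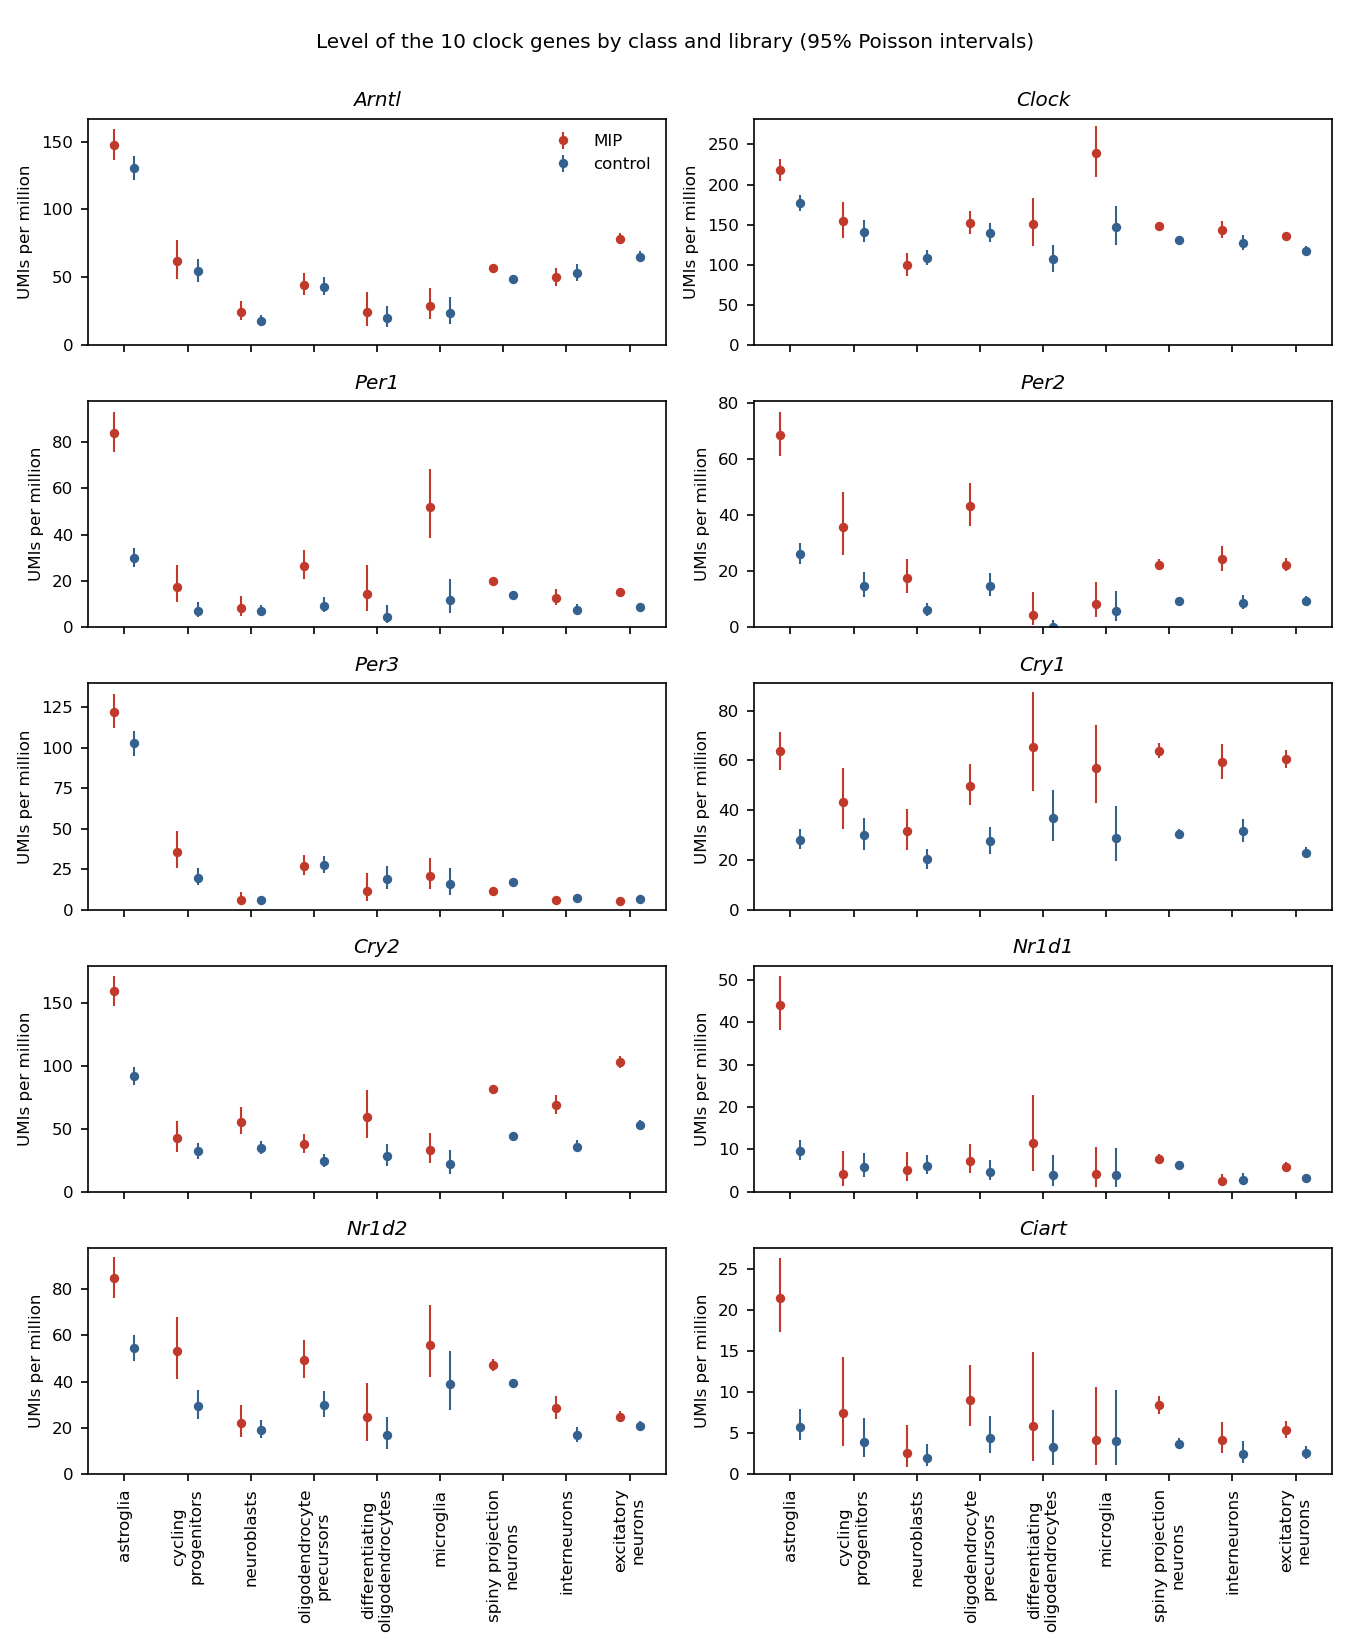
Each panel shows 1 clock gene as UMIs per 1000000 of the class total (vertical axis, from 0) in 9 classes, with the MIP library in red to the left of the control library in blue and 95% Poisson intervals as bars. Astroglia have the highest level of 8 of the 10 genes in both libraries; Cry1 is nearly level across classes, and Clock is highest in microglia of the MIP library.

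The 2 arms were compared as the mean log2 ratio of the 8 negative arm genes, Per1 to Per3, Cry1, Cry2, Nr1d1, Nr1d2 and Ciart, minus that of Arntl and Clock, which is free of any scaling between libraries. This difference was largest in astroglia-like nuclei, at 0.99 (0.85 to 1.14), from means of 1.23 for the negative arm and 0.24 for Arntl and Clock. It was 0.78 (0.49 to 1.06) in oligodendrocyte precursor-like, 0.61 (0.34 to 0.88) in interneuron-like and 0.57 (0.20 to 0.95) in cycling progenitor-like nuclei. Excitatory neuron-like nuclei were at 0.55 (0.41 to 0.68), or 0.40 after thinning, and spiny projection neuron-like nuclei at 0.42 (0.33 to 0.51). The spiny projection neuron-like interval lay wholly below the astroglia-like one. In microglia-like nuclei, over 5 negative arm genes, the contrast was 0.42 (-0.13 to 0.96), in neuroblast-like nuclei, over 7, it was 0.29 (-0.10 to 0.68), and in differentiating oligodendrocyte-like nuclei, over 4, it was 0.06 (-0.56 to 0.67). Those 3 intervals included 0. Of 21 clusters of these classes that held 50 or more nuclei per library all 21 had a contrast above 0, and 17 an interval above 0. The clusters are parts of the same 2 libraries and not replicates. Clusters 6 and 20 are the whole oligodendrocyte precursor-like and differentiating oligodendrocyte-like classes. The 2 astroglia-like clusters differed: cluster 12 was at 1.40 (1.09 to 1.71) and cluster 4, both over all 8 genes, at 0.85 (0.68 to 1.03), and the intervals did not overlap. Neuroblast-like cluster 3, led by Mob3b and Sp8, was at 0.14 (-0.30 to 0.59) and cluster 19, led by Lgr5, at 1.04 (0.08 to 2.01) over 3 negative arm genes. Cluster 19 held 56 MIP and 280 control nuclei. An unnamed cluster, 1, led by Prlr, with 1244 MIP and 1214 control nuclei, was at 0.79 (0.64 to 0.94). In the low-depth nuclei the contrast was -0.48 (-1.08 to 0.11). That value sets largely different clusters against each other: cluster 11 held 662 MIP and 69 control nuclei, and cluster 0 held 48 MIP and 3426 control nuclei. Within cluster 11 the contrast was 3.71 (1.24 to 6.17) over 2 negative arm genes, Cry1 with 0 and Cry2 with 1 control UMIs.

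**Figure D3:**
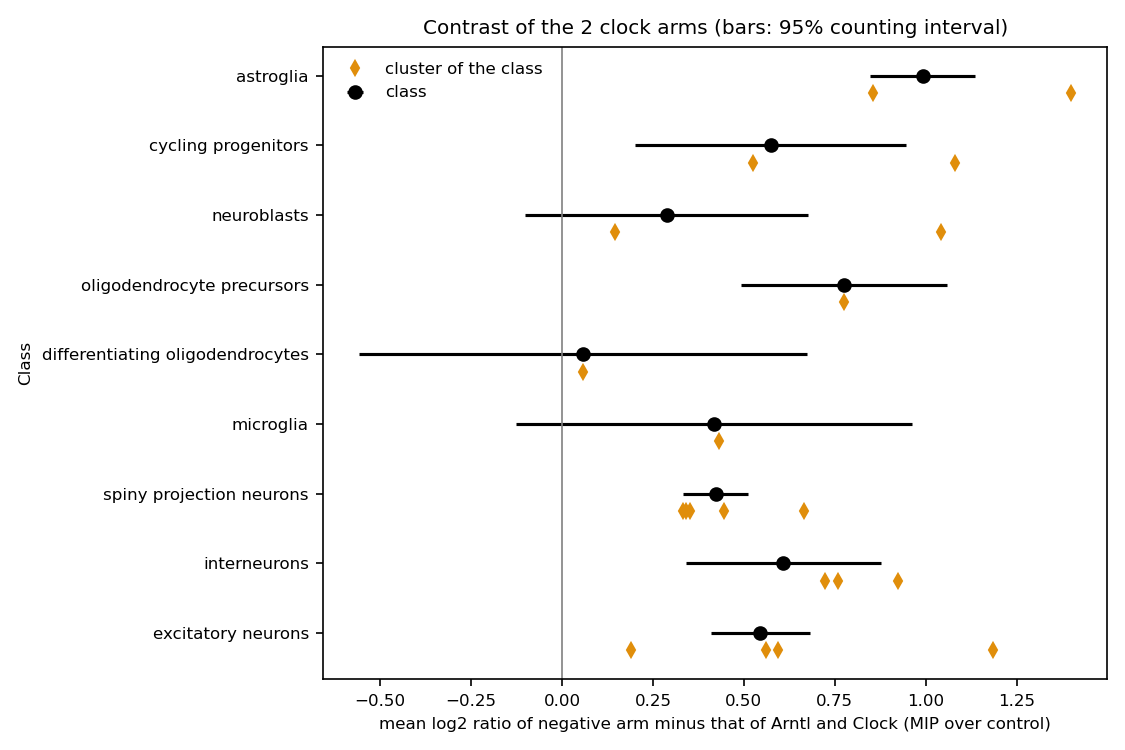
The mean log2 ratio (MIP over control) of the negative arm minus that of Arntl and Clock (horizontal axis) is shown for 9 classes as black circles with 95% counting intervals, and for clusters with at least 50 nuclei in each library as orange diamonds. Astroglia lie farthest from 0, at 0.99; cluster values rest on the genes with at least 20 UMIs in that cluster, so they need not average to the class.

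Levels across classes were led by astroglia-like nuclei in both libraries, and a level is compared here within 1 gene only, since capture differs between genes. Arntl was at 147 CPM in MIP and 130.4 CPM in control astroglia-like nuclei, and next in excitatory neuron-like nuclei at 78.3 CPM in the MIP and 65.1 CPM in the control library. The lower positions ran together: from excitatory neuron-like nuclei down, each class's interval met that of its neighbour in the MIP library. In the control library the same held but for oligodendrocyte precursor-like and microglia-like nuclei, whose intervals lay apart. Per3 had a wide range, 22.2-fold in the MIP and 16.9-fold in the control library between its highest and lowest class. It fell off to 35.9 CPM in MIP cycling progenitor-like nuclei and 27.5 CPM in control oligodendrocyte precursor-like nuclei, the next highest of each library. Cry1 varied little, with a range of 2.08-fold in the MIP and 1.82-fold in the control library and no neighbours in the order apart beyond their intervals. The order of Cry2 was the clearest: in both libraries astroglia-like, excitatory neuron-like, spiny projection neuron-like and interneuron-like nuclei followed each other with intervals apart. Nr1d1 spanned 17.9-fold in the MIP but 3.51-fold in the control library, and Ciart 8.35-fold in the MIP and 2.96-fold in the control library. Clock was led by microglia-like nuclei in the MIP library and by astroglia-like nuclei in the control library, and in both the intervals of these classes overlapped.

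The excess in astroglia-like nuclei was also seen in the share of nuclei with a transcript. With each nucleus thinned to 2000 UMIs, Per1 was found in 15.6% (13.4 to 18, exact Clopper-Pearson) of 998 MIP and 4.92% (3.76 to 6.31) of 1179 control nuclei. Nr1d1 was found in 8.92% (7.22 to 10.9) of MIP and 1.7% (1.04 to 2.61) of control nuclei. Thinning left out 71 MIP and 8 control nuclei. Without it Per1 was in 27.4% of MIP and 15.8% of control nuclei, and Nr1d1 in 16.1% of MIP and 5.31% of control nuclei. No class is known to lack these genes. Neuroblast-like nuclei were shallower, with medians of 2445 UMIs in the MIP and 3591 UMIs in the control library, against 3658 UMIs in MIP and 5094 UMIs in control astroglia-like nuclei. Per1 was in 1.71% of MIP and 1.72% of control neuroblast-like nuclei after thinning, and Nr1d1 in 0.762% of MIP and 1.23% of control ones. Here thinning left out 183 of 708 MIP but 21 of 1241 control nuclei, so the nuclei compared were unequally selected.

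Among 26 other genes of the clock, 7 were at least 1.5 times higher in MIP astroglia-like nuclei, where 4.81% of all genes were, and 2 were lower, where 15.3% were. Their median log2 ratio was -0.03. Dbp, an output factor that binds D-boxes, had 202 UMIs in the MIP and 152 in the control library, a log2 ratio of 1.08 (0.77 to 1.40), and its relative Hlf 536 UMIs in the MIP and 451 in the control library, a log2 ratio of 0.92 (0.74 to 1.11). The third relative, Tef, was at 0.53 (0.37 to 0.69). Npas2, which can stand in for Clock, was at 0.98 (0.81 to 1.16), Bhlhe40, a repressor that competes for E-boxes, at 0.97 (0.68 to 1.251) and its relative Bhlhe41 at 0.75 (0.42 to 1.09). Usp2, a deubiquitinase and clock output, was at 0.95 (0.66 to 1.25021), and Wee1, a cell cycle kinase known as an E-box target, at 0.95 (0.54 to 1.37). The 2 lower genes, Arntl2, a relative of Arntl, at -0.63 (-1.44 to 0.12), and Timeless at -0.70 (-1.60 to 0.14), had intervals that included 0. None of the 4 kinases of clock proteins, Csnk1d, Csnk1e, Csnk2a1 and Gsk3b, was past 1.5 in that class, and their median was -0.12.

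The neurons showed fewer such differences. Of 25 other clock genes 1 was higher and 1 lower in spiny projection neuron-like nuclei, where 3.43% of all genes were higher and 16.4% lower. The higher one was Wee1, at 4.81 CPM in the MIP and 2.17 CPM in the control library, a log2 ratio of 1.15 (0.73 to 1.57), and the lower one Fbxl21, a ligase subunit for cryptochromes, at -0.67 (-1.02 to -0.33). Dbp, by contrast with astroglia-like nuclei, was at 0.05 (-0.10 to 0.21) there. Excitatory neuron-like nuclei had Rora and Wee1 higher and Fbxl21 lower of 25, where 3.84% of all genes were higher and 18.1% lower. Rora, an activator of Arntl that competes with the NR1D proteins, had 9092 UMIs in the MIP and 4861 in the control library in excitatory neuron-like nuclei, a log2 ratio of 0.73 (0.68 to 0.78). The interneuron-like class had 0 of 25 higher and 3 lower (Bhlhe40, Fbxl21 and Cipc), where 3.63% of all genes were higher and 16.9% lower. Cipc, an inhibitor of CLOCK, was at -0.82 (-1.22 to -0.44) in that class.

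Among the dividing and glial classes, oligodendrocyte precursor-like nuclei had Bhlhe40 and Timeless higher and Bhlhe41 lower of 24 genes. There 4.45% of all genes were higher and 15.3% lower. Cycling progenitor-like nuclei had Npas2 and Hlf higher and 0 lower of 23, where 5.82% of all genes were higher and 13.4% lower. In neuroblast-like nuclei 4 of 24 were higher, Rorb, Fbxl21 and Wee1 among them, where 6.99% of all genes were higher. As many were lower (Npas2, Bhlhe41, Usp2 and Noct), where 14.6% of all genes were lower. Npas2 had 13 UMIs in the MIP and 87 in the control library in neuroblast-like nuclei, a log2 ratio of -1.35 (-2.31 to -0.50), on the other side of 0 from its astroglia-like value. In microglia-like nuclei 5 of 20 were higher (Nfil3, Tef, Fbxw11, Usp2 and Nampt) and 6 lower, where 12.1% of all genes were higher and 22.0% lower. Usp2 was at 0.97 (0.41 to 1.54) and Fbxw11, a ligase subunit for PER proteins, at 0.89 (0.58 to 1.20) in microglia-like nuclei. Differentiating oligodendrocyte-like nuclei had Usp2 higher and Csnk1d and Cipc lower of 16, where 8.62% of all genes were higher and 17.1% lower. Neither count exceeded the share of all genes.

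**Figure D4:**
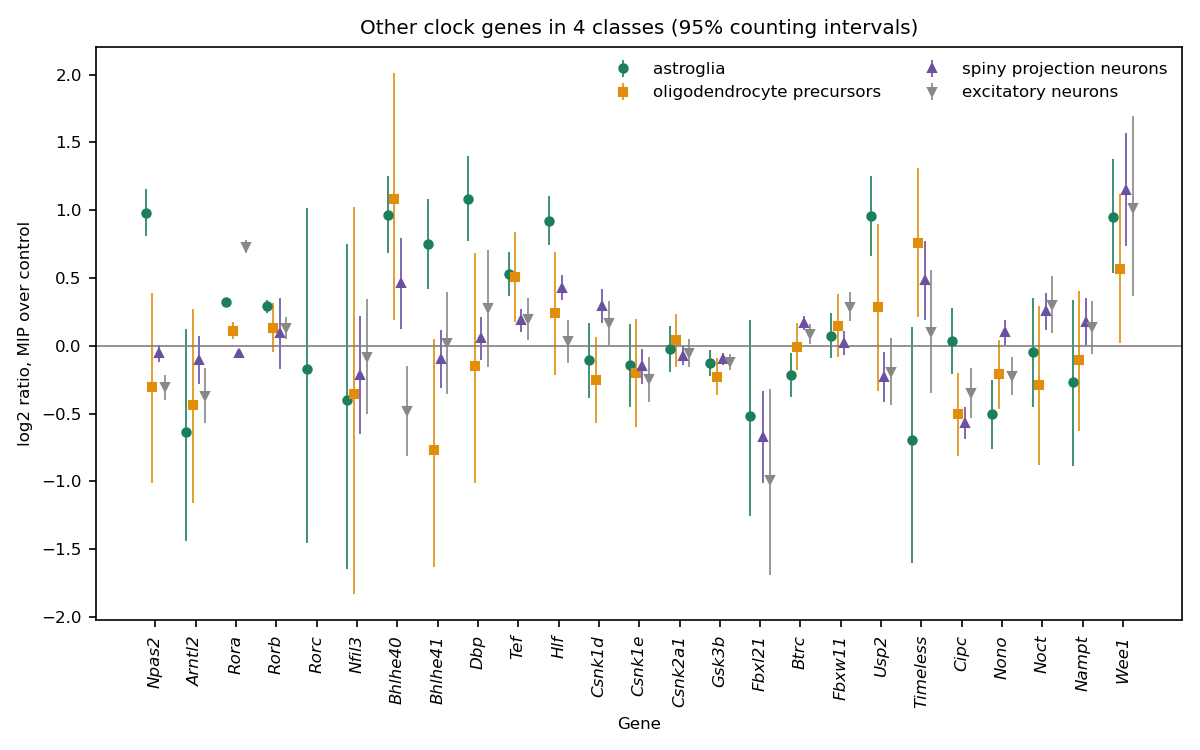
The log2 ratio of MIP to control (vertical axis) is shown with 95% counting intervals for up to 25 other clock genes in astroglia, oligodendrocyte precursors, spiny projection neurons and excitatory neurons, where at least 20 UMIs were counted. Npas2, Bhlhe40, Dbp, Hlf and Usp2 lie near 1 in astroglia, and the 4 kinases lie near 0 in all 4 classes.

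Per1 is a target of the glucocorticoid receptor and of activity, and genes of both kinds were read beside it. Fkbp5, a chaperone gene induced through that receptor, was at 172 CPM in the MIP and 16.7 CPM in the control library in astroglia-like nuclei, a log2 ratio of 3.37 (3.08 to 3.66). It was at 2.01 (1.74 to 2.29) in microglia-like, 1.37 (1.13 to 1.603) in oligodendrocyte precursor-like, 1.005 (0.92 to 1.09) in spiny projection neuron-like and 0.27 (-0.04 to 0.58) in neuroblast-like nuclei. Tsc22d3, another target, was at 1.69 (1.37 to 2.03) in astroglia-like and 2.05 (1.246 to 2.94) in microglia-like nuclei, and Zbtb16 at 1.61 (1.24 to 1.98) in astroglia-like and 2.38 (0.80 to 4.38) in microglia-like nuclei. Zbtb16 was lower in excitatory neuron-like nuclei, at -0.83 (-1.03 to -0.64), and in neuroblast-like nuclei, at -0.73 (-1.10 to -0.38). Among the classes with at least 20 Per1 UMIs, those with the highest ratios of Per1, astroglia-like, microglia-like and oligodendrocyte precursor-like, were also those with the highest ratios of Fkbp5. Sgk1, a further target, was at -0.47 (-1.03 to 0.07) in astroglia-like and -0.70 (-0.78 to -0.61) in spiny projection neuron-like nuclei, and the receptor gene Nr3c1 at -0.41 (-0.60 to -0.22) and -0.77 (-0.88 to -0.66). Of the immediate early genes, Fos was at 1.38 (0.83 to 1.94) in astroglia-like nuclei and Egr1 at -0.20 (-0.70 to 0.29), while in oligodendrocyte precursor-like nuclei Egr1 was at 1.43 (1.02 to 1.84). In microglia-like nuclei all 3 immediate early genes with at least 20 UMIs were higher, with Junb at 0.91 (0.25 to 1.59), Egr1 at 1.16 (0.16 to 2.23) and Nr4a1 at 0.96 (-0.37 to 2.41). The part of either pathway in the Per1 difference was not tested.

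The genes whose levels were most like those of Per1, Nr1d1 and Arntl were sought over the 18 pairs of class and library, among 8755 genes with at least 20 UMIs in each class. The points of 1 library share their depth and sex, and the correlations are descriptions. Per1 was most like Mib1, Ap3s1, Nfat5, Mark3 and Togaram1, with Pearson's r of log2 CPM from 0.85 to 0.79. Nr1d1 was most like Tef, a clock output factor, at 0.84, followed by Emc8, Malat1, Klf9 and Mxd1, the last at 0.77. Arntl was most like Lhfp, at 0.90, followed by Slc1a4, Wdr17, Arhgef12 and Arap2. Per1 and Nr1d1 themselves fell short of 20 UMIs in 1 or more classes.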

How the data were processed

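Each deposited matrix holds whole UMI counts of genes by barcodes. Per the file headers they came from Cell Ranger 5.0.1, and per the submitters' processing notes reads were aligned to mm10. The sources used here give no annotation, intron setting or use of strand. Barcodes with fewer than 500 genes (204 MIP, 0 control) or over 5% mitochondrial UMIs (48 MIP, 114 control) were left out. Scrublet (Scanpy 1.11.5) marked 817 MIP and 0 control barcodes by its own threshold, so the top-scoring 0.8% per 1000 barcodes was removed in both (1174 MIP, 2271 control). The MIP library held 100823376 and the control library 146730970 UMIs. Nuclei were clustered on 3000 variable genes without the clock lists, 40 principal components, 20 neighbours and Leiden resolution 1 (leidenalg 0.10.2), giving 41 clusters. A cluster was named from fixed markers among its top 60 genes by fold. It stayed unnamed with under 3 markers, with more markers of another class than of its own among its top 10, or with border macrophage genes leading it, a rule set after its genes were seen. Counts were summed per class and library and divided by the class total. Ratios have exact intervals of 2 Poisson counts, and the arm contrast a normal interval after adding 0.5 to each count. With no replicates, no count model was fitted. Named were all 10 members, other clock, glucocorticoid and immediate early genes whose interval lay past 1.5 in a class with at least 20 UMIs, and the 5 genes most like Per1, Nr1d1 and Arntl. Other genes and further classes were named after their values were seen, to account for small counts. Members and lists were chosen with earlier results of these data known. One gene of the other clock list is counted but its values are not reported here. The intervals were run on simulated Poisson counts, the model they assume, so that run checked the computation only. They covered the true value in 95.62% (spiny projection neuron-like) to 96.21% (differentiating oligodendrocyte-like) of unchanged genes. Variation between nuclei, animals or libraries was not simulated. Alternatives were doublets, thinning, class definition, TMM scaling, gene minimum, resolution, UMI minimum and fold.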

Additional observations from a re-analysis of the deposited data

Results flagged for a closer look

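Per3 stood out because its ratio lay on opposite sides of equality in classes of the same 2 libraries. Its log2 ratio of MIP to control was 0.25 in astroglia-like nuclei and 0.86 in those like cycling progenitors, with intervals above 0, and -0.57 in spiny projection neuron-like nuclei, with an interval below 0. With 1 library per group the difference between classes was not tested over samples. Against the other classes summed, the difference of log2 ratios was 1.12 (0.55 to 1.70) in cycling progenitor-like and -0.45 (-0.68 to -0.21) in spiny projection neuron-like nuclei, counting error only. After thinning to 2000 UMIs, Per3 was at -0.061 in astroglia-like, 0.28 in cycling progenitor-like and -0.57 in spiny projection neuron-like nuclei.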

How the results depend on the processing

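No paired analysis was possible because each group had 1 library. Among the arm contrasts recomputed, 79 moved by less than their interval. The exceptions were differentiating oligodendrocyte-like nuclei with no UMI minimum (0.81) and excitatory neuron-like nuclei thinned to 2000 UMIs (0.40). Some recomputations could not move. TMM scaling cancels in the contrast, and the UMI minimum has no effect where all 8 negative arm genes passed it. When clusters over 3-fold skewed toward 1 library were left out, classes without such a cluster stayed unchanged, in contrasts and in gene ratios. Skew was judged at Leiden resolution 1. At resolution 2, oligodendrocyte precursor-like clusters held 38 MIP and 641 control, and 615 MIP and 22 control nuclei. The largest neuroblast-like ones held 39 and 940, and 612 and 22, and microglia-like ones 332 and 17, and 2 and 241. The largest astroglia-like cluster held 746 MIP and 685 control nuclei. In neuroblast-like nuclei the contrast ran from -0.03 (classes from marker scores) to 0.62, and without Clock it was -0.01. Of the gene and class ratios recomputed, 556 stayed within the interval, 26 moved and 2 reversed. The 2 reversals came with thinning: Per3 was at -0.061 in astroglia-like and Per1 at -0.078 in interneuron-like nuclei. Thinning, the setting that evens out depth, also moved 16 ratios and left 64 within the interval. TMM scaling moved 8, marker scores and doublets 1 each, and the other settings none. The cause of the reversals was not tested. The share of all genes past a ratio was computed at 1.5 with the main settings only. The counts of members under other settings therefore have no such share to be read against. Thinning gave 2 members higher in cycling progenitor-like, 5 (and 1 lower) in neuroblast-like and 3 in interneuron-like nuclei. With a ratio of 2 the number higher was 2 in cycling progenitor-like, 1 in neuroblast-like, 3 in oligodendrocyte precursor-like, 1 in differentiating oligodendrocyte-like, 1 in microglia-like, 1 in interneuron-like and 3 in excitatory neuron-like nuclei. With the whole interval past 1.5, a rule added after the data were seen, these were 1, 1, 2, 0, 1, 3 and 3. Differentiating oligodendrocyte-like nuclei had 5 higher without doublet removal, 4 with marker scores, 6 with no UMI minimum and 4 with the lowest ratio tried in place of 1.5. The number lower there was 0 without doublet removal, with thinning, with a ratio of 2 and with the whole interval. With that lowest ratio 1 member was lower in cycling progenitor-like and 1 in spiny projection neuron-like nuclei. Without the low-depth clusters, all 10 ratios over all nuclei stayed within their intervals. Depth limited Nr1d1 and Ciart outside astroglia-like, spiny projection neuron-like and excitatory neuron-like nuclei, and differentiating oligodendrocyte-like nuclei throughout.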
